A study of Mus musculus with 8 samples.

Results

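Genes of the neuronal and Schwann lineages were followed in cultured mouse molar tooth germs, the buds from which molars form in the embryo. The set held 28 genes chosen by symbol from a count table of 35896 genes: 8 glial genes (Sox10, Foxd3, Erbb3, Ngfr, Cdh19, S100b, Fabp7 and Mbp) and 20 neuronal genes (Elavl3, Elavl4, Tubb3, Stmn2, Stmn3, Dcx, Map2, Mapt, Nefl, Nefm, Nefh, Prph, Ina, Isl1, Pou4f1, Neurod1, Snap25, Syt1, Gap43 and Uchl1). No measured value entered the choice by symbol, but the list was drawn up with earlier results of these data known. Of the 28 genes, 24 had enough counts to be tested (7 glial and 17 neuronal), and Fabp7, Stmn3, Nefh and Neurod1 did not.

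All germs came from BRE-GFP embryos, in which green fluorescent protein reports BMP-driven Smad activity, and all were grown in medium with fetal bovine serum. The E12.5 germs were treated for 1 day with SIS3, an inhibitor of Smad3, with SB431542, which blocks the type I receptors for TGF-beta and activin, or with the solvent DMSO. Germs of E13.5 received DMSO for 1 day as a stage control. The sources used here give no dose, no number of embryos behind a sample and no word on pooling of germs. The count table had 2 columns for every group. Column totals differed by 0.00212% for SB431542, 0.00749% for E13.5 DMSO and 0.00168% for E12.5 DMSO. For genes with 1 annotated transcript the typical (median-based) squared difference between these columns was 1.19 to 1.25 times the sampling variance, and it was larger for genes with more transcripts. Each pair was therefore summed and counted as 1 sample. The 2 SIS3 columns differed by 44.5% in total and were kept apart. The 5 libraries held 5995709 and 9427262 counts (SIS3 libraries 1 and 2), 28161788 (SB431542), 17519118 (E13.5 DMSO) and 30975010 (E12.5 DMSO). The TruSeq RNA kit v2 was used for both SIS3 libraries and the SMARTer Universal Low Input kit for the others. The effects of SIS3 and of the kit cannot be told apart, and this holds for every SIS3 value given here.

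Schwann cell precursors are neural-crest cells that migrate along growing nerves, take neuregulin signals through the ErbB3 receptor and depend on the transcription factor Sox10. In the jaw they accompany axons of the trigeminal ganglion. The cell bodies of those sensory neurons lie in the ganglion, outside the tooth germ, whereas Schwann lineage cells lie along the axons with their nuclei. The sources used here do not state whether the germs held axons. Which cells the RNA of the neuronal genes came from was not tested. Several of the 28 genes are also known outside nerves: Ngfr in neural-crest-derived mesenchyme, Erbb3 in epithelia, and Mbp through the longer transcripts of its locus in other cell types.

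Ngfr and Dcx were the glial and the neuronal gene with the smallest p-value in the SIS3 comparison described further on, and their promoters are shown to set that pair side by side. Both stretches are given 5′ to 3′ on the minus strand in RefSeq's GRCm38.p6. They end at the base before the outermost annotated transcription start (chr11:95587736-95587948 for Ngfr, 213 bases, and chrX:143933312-143933469 for Dcx, 158 bases), and capitals mark matches to the motifs searched.
Ngfr: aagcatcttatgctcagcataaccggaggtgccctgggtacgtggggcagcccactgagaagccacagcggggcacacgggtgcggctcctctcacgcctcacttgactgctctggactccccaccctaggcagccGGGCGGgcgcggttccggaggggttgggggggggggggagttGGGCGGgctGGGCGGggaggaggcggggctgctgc
Dcx: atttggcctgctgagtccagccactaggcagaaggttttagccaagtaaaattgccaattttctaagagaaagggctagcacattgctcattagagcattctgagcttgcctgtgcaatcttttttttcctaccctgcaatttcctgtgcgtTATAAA
The 3 capital runs in Ngfr match the GC box motif (GGGCGG, searched on both strands). The run in Dcx matches the TATA box motif (TATAAA) and ends at the base directly before the outermost annotated start. The whole windows of 300 bases, from 250 before to 50 after the RefSeq start, were 71.7% GC for Ngfr and 43% GC for Dcx. RefSeq promoters were at hand for 17 of the 28 genes. Some have more than 1, and of their 22 promoters 9 had a GC box, against 35.7% of all 32851 promoters, and 4 had a TATA box, against 13.6%. An E-box (CAGCTG) was found in 8 of the 22, against 16.3% of all promoters, a Sox motif (ACAAAG) in 3, against 18.7%, and the palindromic Smad box (GTCTAGAC) in none, against 0.213%. No match overlapped another in the stretches shown, and a match is only a description of letters.

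The identity of the tissue and of the lineages was read from marker genes. Dental mesenchyme markers (9 genes, among them Msx1, Pax9 and Barx1) summed to 4233 and 3705 CPM (a gene's counts scaled to a common library total) in the SIS3 libraries, 5896 in the SB431542 library, 8904 in the E13.5 DMSO library and 7314 in the E12.5 DMSO library. These sums lean on the collagen gene Col1a1, which held 610.4 and 606.3 CPM of them in the SIS3 libraries, 1896 with SB431542, 5982 at E13.5 and 3334 at E12.5 in DMSO. The median of the 9 genes was 363.6 and 223.6 CPM in the SIS3 libraries, 320.9 with SB431542, 269.8 at E13.5 and 363.4 at E12.5 in DMSO. The 8 glial genes together gave 35.7 to 84.5 CPM in the 5 libraries and the 20 neuronal genes 140.4 to 205.8 CPM. Rbfox3, a nuclear marker of differentiated neurons, lay between 0.667 and 5.31 CPM. The 12 central nervous system markers summed to 2.00 to 4.03 CPM, with 3 to 9 of them at 0 in a library, and the highest, Tbr1 and Emx2, reached 2.11 and 1.99 CPM in single libraries. Of the 11 autonomic ganglion genes, which summed to 2.50 to 7.25 CPM, 7 and 4 were at 0 in the SIS3 libraries, 1 in the SB431542 library, 6 in the E13.5 DMSO library and 2 in the E12.5 DMSO library. The 20 other Schwann lineage genes summed to 306.03 to 427.2 CPM, most of it from the adhesion molecule Ncam1 (171.9 to 294.7 CPM), which is also known outside glia. Their median was 1.92 to 4.65 CPM, and 1 to 5 of them were at 0 in a library.

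At E12.5 in DMSO the levels spanned a wide range. Per kilobase of exon (RPKM), Gap43, a growth cone protein, stood first at 19.7 RPKM and Ngfr, the low-affinity neurotrophin receptor, second at 16.7 RPKM. The neurofilament gene Nefl followed at 7.64 RPKM, Uchl1, a deubiquitinating enzyme abundant in neurons, at 6.86, Tubb3, the neuronal beta-tubulin, at 4.25 and Map2, a dendritic microtubule protein, at 3.73. The next were Erbb3 at 2.76, Nefm at 2.08, Dcx at 1.37 and the calcium-binding glial protein gene S100b at 1.02 RPKM. The other 18 genes were under 1 RPKM, among them Sox10 at 0.561 RPKM, Mapt at 0.0943 RPKM and Neurod1 with no count. With 1 library for this group the spread of the order is unknown. In SIS3 library 1 against library 2, the only pair of separate libraries, Gap43 stood at 10.8 and 13.51 RPKM and Ngfr at 8.76 and 4.06 RPKM, so Gap43 and Ngfr at E12.5, which differ by less than the Ngfr values of that pair, are not told apart, and nor are closer neighbours.

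**Figure D1:**
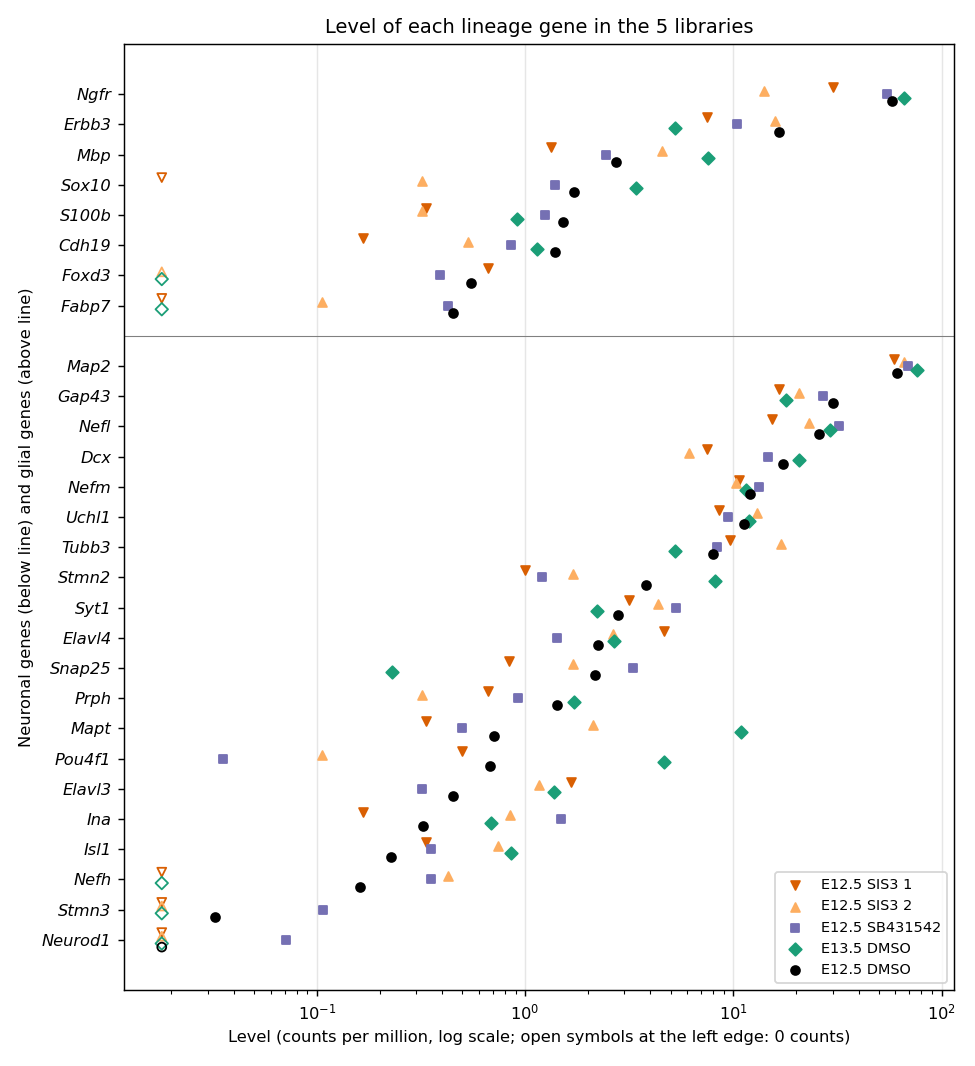
Level of each of the 28 genes in the 5 libraries, in CPM on a log scale, with the glial genes above the line and the neuronal genes below it. Open symbols at the left edge are counts of 0. Ngfr, Map2, Gap43 and Nefl lie near the right edge in all 5 libraries, and Sox10 and S100b show both SIS3 libraries (triangles) to the left of every other library.

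A few genes carried most of each lineage's counts. Ngfr made up 75.1% and 39.2% of the summed glial CPM in the SIS3 libraries, 76.3% in the SB431542 library, 78.3% in the E13.5 DMSO library and 69.8% in the E12.5 DMSO library. Map2 made up 33.95% to 41.9% of the neuronal sum. The glial sum was 40.2 and 35.7 CPM in the SIS3 libraries, 72.1 in the SB431542 library, 84.5 in the E13.5 DMSO library and 82.6 in the E12.5 DMSO library. Both SIS3 libraries lay below the other 3. Without Ngfr the glial sum was 10.0 and 21.7 CPM in the SIS3 libraries, 17.1 in the SB431542 library, 18.3 in the E13.5 DMSO library and 25.0 in the E12.5 DMSO library, and the SIS3 libraries then lay on either side of 2 of the others. The neuronal sum was 140.4 and 172.2 CPM in the SIS3 libraries, 189.6 in the SB431542 library, 205.8 in the E13.5 DMSO library and 180.9 in the E12.5 DMSO library. Both SIS3 libraries were the lowest here too. The ratio of the neuronal to the glial sum was 3.49 and 4.82 in the SIS3 libraries, 2.63 with SB431542, 2.44 at E13.5 and 2.19 at E12.5 in DMSO. This ratio leans on Ngfr, since the glial sum without Ngfr did not set both SIS3 libraries below the others. In bulk RNA, fewer cells of a type and less RNA per cell cannot be told apart.

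**Figure D2:**
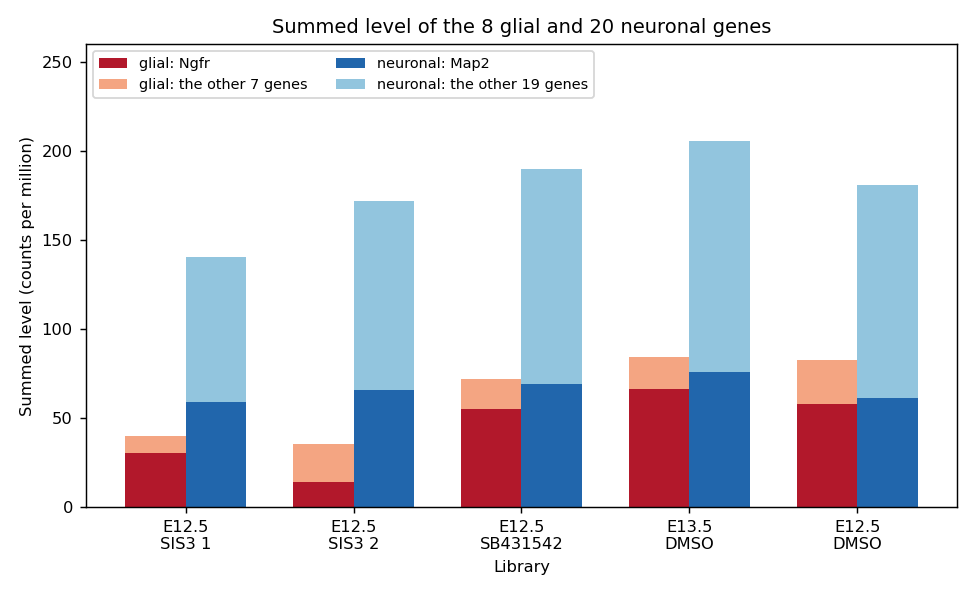
Summed level of the 8 glial genes (red, with Ngfr in the dark part) and of the 20 neuronal genes (blue, with Map2 in the dark part) in each library, in CPM. The glial bar is 40.2 and 35.7 CPM in the SIS3 libraries and 72.1 to 84.5 CPM in the other 3, while the neuronal bars run from 140.4 to 205.8 CPM.

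The SIS3 comparison asked which genes differed after 1 day of Smad3 inhibition at E12.5, and it is the only one with 2 libraries in a group. Most of the glial genes had lower values in the SIS3 libraries, and the neuronal genes were mixed, but no gene of either lineage passed the test. Differences were tested with edgeR's quasi-likelihood test over 19022 genes with Benjamini-Hochberg adjustment at 0.05. None of the 24 tested genes was called, against 3.82% of all genes (0.794% higher and 3.03% lower), and DESeq2 called none of the 24 and 3.55% of all genes. At an unadjusted p under 0.05 there were 2 glial genes and 1 neuronal gene, all lower, against 16.8% of all genes (5.82% higher and 11% lower). The median log2 fold change was -1.46 over the 7 glial genes and -0.13 over the 17 neuronal genes, against 0 over all genes tested. Below 0 were 6 of the 7 glial genes, 10 of the 17 neuronal genes and 49.8% of all genes. The median 95% confidence interval of a single gene reached 2.57 to either side for the glial and 1.67 for the neuronal genes.

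The transcription factors of the crest and glia were at few counts. Sox10 (ENSMUSG00000033006; GRCm38 chromosome 15, 79154908 to 79165240, minus strand), which specifies glial fate, had 0 and 3 counts in the SIS3 libraries, against 39 in the SB431542 library, 60 in the E13.5 DMSO library and 53 in the E12.5 DMSO library. In CPM this was 0 and 0.318 in the SIS3 libraries, against 1.71 in the E12.5 DMSO library, and both SIS3 libraries lay below all 3 others. The log2 fold change of Sox10 was -3.24 (SE 1.23, adjusted p = 0.192), and the ratio of the pooled SIS3 counts to DMSO was 0.114, with a 95% counting interval of 0.0227 to 0.351. Foxd3, a forkhead factor of the early crest, had 4 and 0 counts in the SIS3 libraries, against 17 in the E12.5 DMSO library, and the 2 SIS3 libraries did not lie on the same side of it in CPM.

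Among the receptors and adhesion molecules, Ngfr (ENSMUSG00000000120; GRCm38 chromosome 11, 95568818 to 95587735, minus strand) stood at 30.2 and 14.0 CPM in the SIS3 libraries, 55.0 in the SB431542 library, 66.2 in the E13.5 DMSO library and 57.7 in the E12.5 DMSO library. Its log2 fold change was -1.46 (SE 0.45, adjusted p = 0.139), and every SMARTer library was above both SIS3 libraries. Without a filter on low counts, Ngfr alone of the 28 genes was called lower (adjusted p = 0.00152), beside 1414 of 27543 genes called in that fit. Over the 16 alternatives with a test its adjusted p ran from 0.00152 to 0.424. It was called in 3 of them: the fit without the filter and the fits with all 8 columns as replicates, with and without a block. The column fits treat columns counted here as 1 library as replicates. Cdh19, a cadherin of Schwann cell precursors, had 1 and 5 counts in the SIS3 libraries, against 43 in the E12.5 DMSO library (log2 fold change -1.96, SE 1.22, adjusted p = 0.460). Erbb3, the neuregulin receptor, stood at 7.51 and 15.9 CPM in the SIS3 libraries, against 16.6 CPM in the E12.5 DMSO library (log2 fold change -0.57, SE 0.55, adjusted p = 0.674). Both SIS3 libraries were below E12.5 DMSO, library 2 only slightly, but not below every SMARTer library, with 10.4 CPM for SB431542 and 5.25 for E13.5 DMSO.

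The cytoplasmic and myelin proteins were not alike either. S100b stood at 0.334 and 0.318 CPM in the SIS3 libraries, 1.24 in the SB431542 library, 0.913 in the E13.5 DMSO library and 1.52 in the E12.5 DMSO library (log2 fold change for SIS3 -2.27, SE 1.19, adjusted p = 0.363). These SIS3 values rest on 2 and 3 counts. Fabp7, a fatty acid binding protein of early glia, had 0 and 1 counts in the SIS3 libraries, against 14 in the E12.5 DMSO library, and was not tested. Mbp, myelin basic protein, stood at 1.33 and 4.56 CPM in the SIS3 libraries, on either side of the 2.74 CPM in the E12.5 DMSO library, with a log2 fold change of 0.06 (SE 0.82).

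Of the neuronal genes, Dcx (ENSMUSG00000031285; GRCm38 chromosome X, 143855842 to 143933311, minus strand), a microtubule protein of young migrating neurons, had the smallest p-value. It stood at 7.51 and 6.15 CPM in the SIS3 libraries, 14.7 in the SB431542 library, 20.7 in the E13.5 DMSO library and 17.4 in the E12.5 DMSO library. Both SIS3 libraries lay below all 3 others, and the log2 fold change for SIS3 was -1.42 (SE 0.48, adjusted p = 0.134). Stmn2, a stathmin of growth cones, stood at 1.00 and 1.70 CPM in the SIS3 libraries, against 3.81 CPM in the E12.5 DMSO library (log2 fold change -1.54, SE 0.77, adjusted p = 0.341). Prph, the intermediate filament protein peripherin of peripheral neurons, had 4 and 3 counts in the SIS3 libraries, against 44 in the E12.5 DMSO library (log2 fold change -1.65, SE 1.15, adjusted p = 0.524). Gap43 stood at 16.5 and 20.6 CPM in the SIS3 libraries, against 30.1 CPM in the E12.5 DMSO library (log2 fold change -0.77, SE 0.40, adjusted p = 0.362).

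The remaining neuronal genes were mixed. Pou4f1, a homeodomain factor of sensory neurons, stood at 0.500 and 0.106 CPM in the SIS3 libraries, against 0.678 CPM in the E12.5 DMSO library (log2 fold change -1.35, SE 1.26, adjusted p = 0.657). Snap25, a membrane fusion protein of synapses, stood at 0.834 and 1.70 CPM in the SIS3 libraries, against 2.16 CPM in the E12.5 DMSO library (log2 fold change -0.81, SE 0.95, adjusted p = 0.736). Both genes were below DMSO in both SIS3 libraries, but the Pou4f1 values rest on 3 and 1 counts, at or under the floor of 3 counts. They give no direction for Pou4f1. Map2 had the tightest estimate of the set, at 58.9 and 66.0 CPM in the SIS3 libraries, against 61.4 CPM in the E12.5 DMSO library (log2 fold change -0.05, 95% interval -0.72 to 0.62). Tubb3 was the one gene of the 24 that was higher in both SIS3 libraries than in all 3 others, at 9.67 and 16.9 CPM in the SIS3 libraries, 8.34 in the SB431542 library, 5.25 in the E13.5 DMSO library and 7.94 in the E12.5 DMSO library (log2 fold change 0.67, SE 0.58, adjusted p = 0.630). Elavl3 and Elavl4, RNA-binding proteins of postmitotic neurons, had log2 fold changes of 1.55 (SE 1.24) and 0.63 (SE 0.86). The neurofilament genes Nefl and Nefm, at -0.50 (SE 0.41) and -0.27 (SE 0.51), share 1108 exonic bases on opposite strands, 32.8% of Nefl and 19.2% of Nefm, and the counting is not stated to use strand, so their counts are uncertain. The same holds for Uchl1, whose antisense gene covers 18.1% of its exons, and for Ina, 14.1% of which overlaps Nt5c2.

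By rank alone, both SIS3 libraries lay below all 3 other libraries for 4 of the 7 glial genes (Sox10, S100b, Cdh19 and Ngfr) and for 4 of the 17 neuronal genes (Dcx, Nefl, Nefm and Prph), against 21.9% of all genes tested. They lay above all 3 others for 0 glial genes and 1 neuronal gene, against 21.8% of all genes. The glial median minus the neuronal median was -1.33 on the log2 scale. It was -2.15 without SIS3 library 1, -0.71 without SIS3 library 2 and -0.63 over the 18 genes that averaged at least 1 CPM. Single SIS3 libraries thus move the size of this gap by more than 1.5 times, and the gap has no test.

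**Figure D3:**
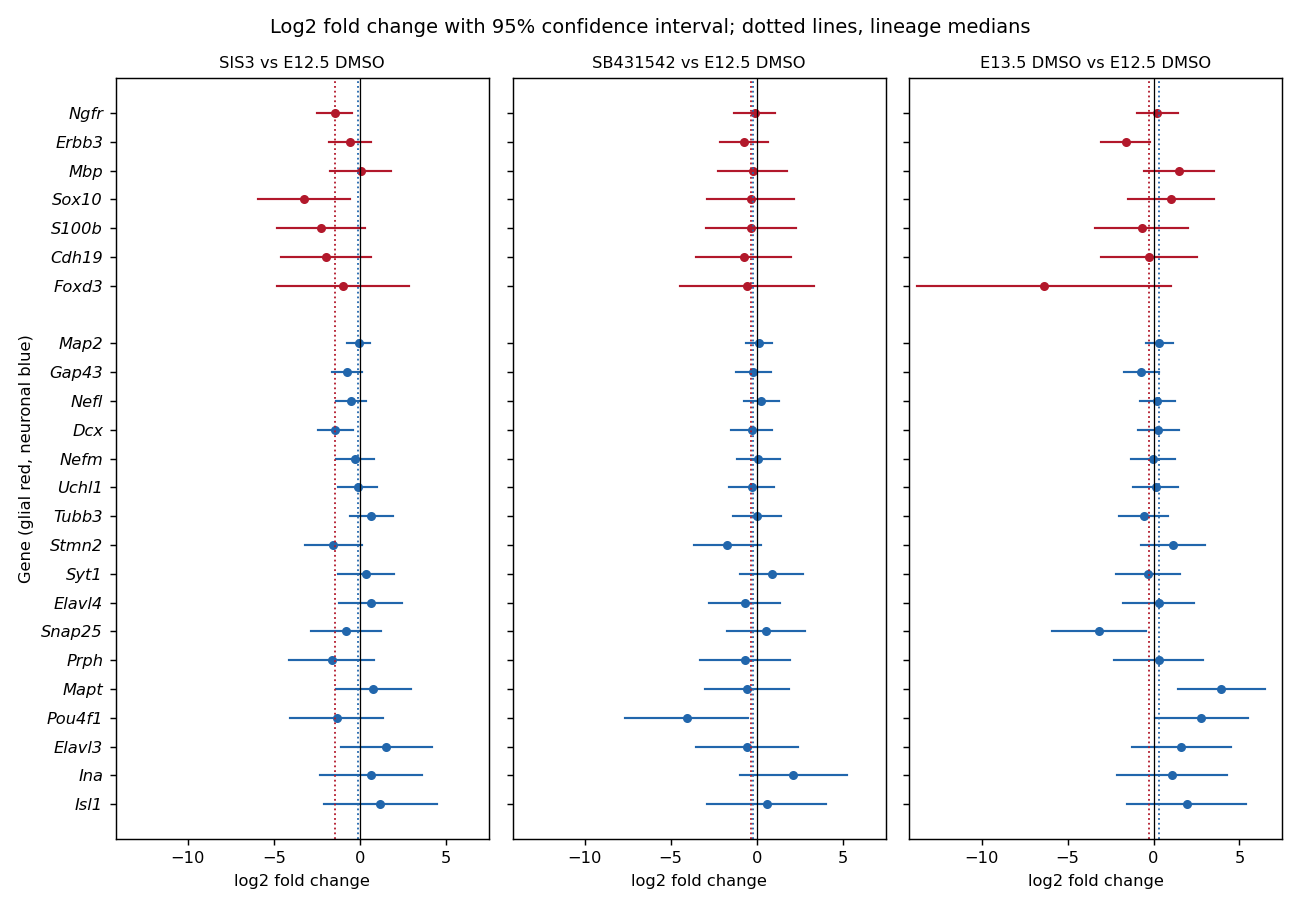
Log2 fold change of the 24 tested genes against E12.5 DMSO, with 95% confidence intervals from the fit (bars) and the medians of the 7 glial (red) and 17 neuronal (blue) genes as dotted lines. In the SIS3 panel the medians lie at -1.46 and -0.13, in the SB431542 panel at -0.36 and -0.20 and in the E13.5 panel at -0.25 and 0.30. No gene was called in any panel.

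The 2 SIS3 libraries differed from each other in both lineages. Relative to the E12.5 DMSO library the glial median was -1.18 in SIS3 library 1 and -2.004 in library 2 on the log2 CPM scale, and the neuronal median was -0.44 in library 1 and 0.01 in library 2. Gene by gene, however, the median difference of library 2 minus library 1 was 1.03 over the glial genes, 0.40 over the neuronal genes and 0 over all genes tested, and 4 of the 7 glial genes were higher in library 2. Mapt, the axonal microtubule protein tau, had 2 counts in library 1 and 20 in library 2, a difference of 2.29 on the log2 CPM scale (library 2 minus library 1). Mbp had 8 counts in library 1 and 43 in library 2, a difference of 1.65, and Ngfr differed in the other direction, by -1.15. Erbb3 differed by 1.03. Sox10 differed by 1.92, but this rests on 0 counts in library 1 and 3 in library 2, and its size depends on the small count added before taking logs. Markers of other tissues also differed between these libraries: the 7 chondrocyte markers summed to 165.6 CPM in library 1 and 782.7 CPM in library 2, and the 10 epithelial markers to 67.7 CPM in library 1 and 270.7 CPM in library 2. Their part in the lineage values was not tested.

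**Figure D4:**
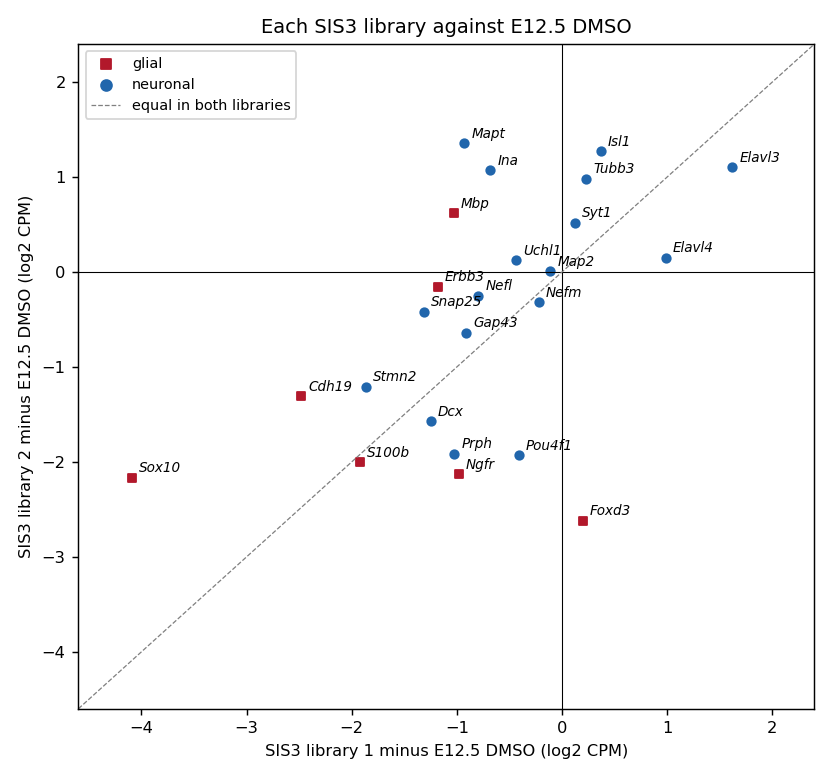
Difference of each SIS3 library from the E12.5 DMSO library for the 24 tested genes, in log2 CPM, with library 1 on the horizontal and library 2 on the vertical axis. Sox10, Cdh19, S100b and Ngfr (red squares) lie below 0 for both libraries, while Mbp, Mapt and Ina lie left of 0 for library 1 and above 0 for library 2.

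Cell types other than nerve also had different values in the SIS3 libraries. All 10 endothelial markers were called lower, the 5 with the smallest p-values being Cdh5, Kdr, Flt1, Tie1 and Tek, and their sum was 49.9 and 42.5 CPM in the SIS3 libraries, against 434.5 CPM in the E12.5 DMSO library. Of the 10 macrophage markers 4 were called lower (Laptm5, C1qc, C1qa and C1qb), with sums of 13.8 and 12.52 CPM in the SIS3 libraries, against 65.1 CPM in the E12.5 DMSO library. Of the 8 skeletal muscle markers 3 were called lower (Ttn, Myh3 and Actc1), with sums of 269.5 and 221.2 CPM in the SIS3 libraries, against 756.3 CPM in the E12.5 DMSO library. Of the 9 dental mesenchyme markers 1 was called lower, Col1a1 (log2 fold change -2.53, SE 0.25, adjusted p = 6.41e-05). No endothelial and no muscle marker was at 0 in a SIS3 library, and 1 and 3 of the macrophage markers were. The part of these tissues, and of the kit, in the glial and neuronal values was not tested.

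Further nerve genes were read from lists chosen by role. Of 20 other Schwann lineage genes, 15 were tested and 1 was called lower in the SIS3 libraries: Gfra3, a co-receptor for the neurotrophic factor artemin, stood at 0.500 and 0 CPM in the SIS3 libraries, against 6.59 CPM in the E12.5 DMSO library (log2 fold change -5.02, SE 1.09, adjusted p = 0.0303). These are 3 counts in all, a ratio to DMSO of 0.0295 with a counting interval of 0.00604 to 0.0875. The median of that list was -0.48. Of 38 other pan-neuronal genes, 32 were tested, with a median of 0.05, and 1 was called lower: Basp1, a growth cone membrane protein, at 116.7 and 158.6 CPM in the SIS3 libraries, against 291.8 CPM in the E12.5 DMSO library (log2 fold change -1.16, SE 0.29, adjusted p = 0.0439). Of 23 sensory ganglion genes, 15 were tested, with a median of -0.89. Piezo2, a mechanosensitive channel, was called lower, at 43.7 and 68.5 CPM in the SIS3 libraries, against 133.9 CPM in the E12.5 DMSO library (log2 fold change -1.33, SE 0.32, adjusted p = 0.0344). Avil, an actin-binding protein of sensory neurons, was called higher, at 17.3 and 43.7 CPM in the SIS3 libraries, against 1.97 CPM in the E12.5 DMSO library (log2 fold change 3.87, SE 0.73, adjusted p = 0.0123). These counts of 1 in 15, 1 in 32 and 2 in 15 stand beside the 3.82% of all genes. No gene was called among 5 tested autonomic ganglion genes, 12 neurotrophic ligand genes, 3 melanocyte markers and 3 central nervous system markers.

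The SB431542 comparison addressed the effect of blocking TGF-beta and activin receptors for 1 day at E12.5, with 1 library against 1 made with the same kit. All 7 tested glial genes had log2 fold changes below 0, from -0.75 to -0.12, and none was called. With single columns left out, S100b turned to 0.12 without SB431542 column 1 and Mbp to 0.066 without SB431542 column 2. No gene of the 24 was called, against 0% of all genes tested, so the whole comparison held no call by edgeR. DESeq2 called 0.021% of all genes and none of the 24. At an unadjusted p under 0.05 stood 1 neuronal gene and no glial gene, against 1.24% of all genes (0.568% higher and 0.668% lower). The median log2 fold change was -0.36 over the glial genes, which were 7 of 7 below 0, and -0.20 over the neuronal genes, of which 9 of 17 were below 0, against 0.0016 and 47.4% below 0 over all genes. The median 95% confidence interval of a glial gene reached 2.51 to either side. The spread in this comparison is borrowed from the pair of SIS3 libraries, so it has no replicate check of its own.

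Among the glial genes, Erbb3 stood at 10.4 CPM in the SB431542 library, against 16.6 CPM in the E12.5 DMSO library (log2 fold change -0.73, SE 0.65, adjusted p = 1). Ngfr was close, at 55.0 CPM in the SB431542 library, against 57.7 CPM in the E12.5 DMSO library (log2 fold change -0.12, 95% interval -1.34 to 1.09). Sox10 had 39 counts in the SB431542 library, against 53 in the E12.5 DMSO library, and Cdh19 had 24 in the SB431542 library, against 43 in the E12.5 DMSO library. The 95% interval of each of these fold changes included 0.

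Among the neuronal genes, Pou4f1 (ENSMUSG00000048349; GRCm38 chromosome 14, 104461676 to 104467999, minus strand) was the gene with an unadjusted p under 0.05. It had 1 count in the SB431542 library, against 21 in the E12.5 DMSO library (log2 fold change -4.06, SE 1.66, unadjusted p = 0.0288, adjusted p = 1), a ratio of 0.0524 with a counting interval of 0.00127 to 0.326. Stmn2 had 34 counts in the SB431542 library, against 118 in the E12.5 DMSO library (log2 fold change -1.70, SE 0.90, adjusted p = 1). In the other direction, Ina, the filament protein alpha-internexin, had 42 counts in the SB431542 library, against 10 in the E12.5 DMSO library (log2 fold change 2.13, SE 1.45), and Syt1, the calcium sensor of synaptic vesicles, had 150 in the SB431542 library, against 87 in the E12.5 DMSO library (0.87, SE 0.85). Map2 differed by 0.12 (95% interval -0.65 to 0.89). None of these genes passed the adjusted threshold. No gene of the other nerve lists was called, and the median log2 fold change was 0.08 over the other Schwann lineage genes, 0.14 over the other pan-neuronal genes and -0.29 over the sensory ganglion genes. The 10 epithelial markers summed to 44.1 CPM in the SB431542 library, against 137.5 CPM in the E12.5 DMSO library, with 9 of 9 tested below 0 and none called. Their part in the nerve values was not tested.

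The stage comparison set the E13.5 DMSO library against the E12.5 DMSO library. The 2 lineages held single genes with large differences in both directions, and none was called. Of the 24 genes, 0 were called, against 5.23% of all genes (4.06% higher and 1.17% lower), and DESeq2 called none of the 24 and 3.02% of all genes. At an unadjusted p under 0.05 there were 1 glial gene, lower, and 3 neuronal genes, 2 higher and 1 lower, against 24.3% of all genes (15.4% higher and 8.88% lower). The median log2 fold change was -0.25 over the glial genes and 0.30 over the neuronal genes, against -0.00075 over all genes. Below 0 were 4 of 7 glial genes, 5 of 17 neuronal genes and 50.03% of all genes. The glial median minus the neuronal median was -0.55, and it turned to 0.38 over the genes that averaged at least 1 CPM.

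The E13.5 library stood apart from the other 4 in its composition. Olfactory and vomeronasal receptor genes took 2.01% of its counts, against 0.537% to 0.834% in the others, and predicted genes, pseudogenes and receptors together took 9.70%, against 3.73% to 4.75%. When those genes were left out, 56 genes were called at E13.5 in place of 995, and none of the 24 was called in either case. Of the 8 skeletal muscle markers 3 were called lower at E13.5, and the same 3 (Myod1, Pax7 and Tnnc2) were at 0 in that library.

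Mapt (ENSMUSG00000018411; GRCm38 chromosome 11, 104231390 to 104332090, plus strand) had the smallest p-value of the 24 genes in the stage comparison. It had 190 counts (10.8 CPM) in the E13.5 DMSO library, against 22 counts (0.710 CPM) in the E12.5 DMSO library, and its level in the other libraries was 0.334, 2.12 and 0.497 CPM (SIS3 libraries 1 and 2, SB431542). The log2 fold change was 3.95 (SE 1.15, adjusted p = 0.0680) and the ratio 15.3, with a counting interval of 9.80 to 24.9. Without the filter on low counts, Mapt was called higher (adjusted p = 0.00872), as were or were lower 2062 of 27543 genes in that fit. Over the 13 alternatives with a test its adjusted p ran from 0.00178 to 0.163. It was called in 3 of them: the fit without the filter and the fits with all 8 columns as replicates, with and without a block. The 0.00178 is from a column fit, which treats columns counted here as 1 library as replicates. Pou4f1 had 81 counts (4.62 CPM) in the E13.5 DMSO library, against 21 (0.678 CPM) in the E12.5 DMSO library (log2 fold change 2.79, SE 1.26, adjusted p = 0.195). Stmn2 stood at 8.16 CPM in the E13.5 DMSO library, against 3.81 CPM in the E12.5 DMSO library (log2 fold change 1.13, SE 0.87, adjusted p = 0.463). Isl1, which acts beside Pou4f1 in sensory neurons, had 15 counts in the E13.5 DMSO library, against 7 in the E12.5 DMSO library (log2 fold change 1.92, SE 1.61).

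The 5 neuronal genes with log2 fold changes below 0 were the 3 of vesicle release and the growth cone, with Tubb3 at -0.57 (SE 0.66) and Nefm at -0.03 (SE 0.58). Snap25 had 4 counts (0.228 CPM) in the E13.5 DMSO library, against 67 (2.16 CPM) in the E12.5 DMSO library (log2 fold change -3.18, SE 1.28, adjusted p = 0.149). Gap43 stood at 17.9 CPM in the E13.5 DMSO library, against 30.1 CPM in the E12.5 DMSO library (log2 fold change -0.72, SE 0.48, adjusted p = 0.387), and Syt1 had a log2 fold change of -0.30 (SE 0.86). Map2, the most abundant of the set in CPM, stood at 75.9 CPM in the E13.5 DMSO library, against 61.4 CPM in the E12.5 DMSO library (log2 fold change 0.34, 95% interval -0.44 to 1.11).

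The glial genes also went both ways. Erbb3 stood at 5.25 CPM in the E13.5 DMSO library, the lowest of the 5 libraries, against 16.6 CPM in the E12.5 DMSO library (log2 fold change -1.63, SE 0.67, adjusted p = 0.159). Foxd3 had 0 counts in the E13.5 DMSO library, against 17 in the E12.5 DMSO library, at least 3.21-fold lower with the 0 set at a floor of 3 counts per library, while the 95% counting interval of the ratio reached up to 0.428. Fabp7 had 0 counts in the E13.5 DMSO library, against 14 in the E12.5 DMSO library, at least 2.64-fold lower on the same floor, with a counting interval up to 0.533. In the other direction, Mbp stood at 7.59 CPM in the E13.5 DMSO library, against 2.74 CPM in the E12.5 DMSO library (log2 fold change 1.496, SE 0.94, adjusted p = 0.357), and Sox10 at 3.42 CPM in the E13.5 DMSO library, against 1.71 CPM in the E12.5 DMSO library (1.03, SE 1.16, adjusted p = 0.636). Ngfr differed little, at 66.2 CPM in the E13.5 DMSO library, against 57.7 CPM in the E12.5 DMSO library (log2 fold change 0.23, 95% interval -0.99 to 1.45). With Foxd3 set at that floor the glial median was also -0.25, since Cdh19 holds the middle place.

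**Figure D5:**
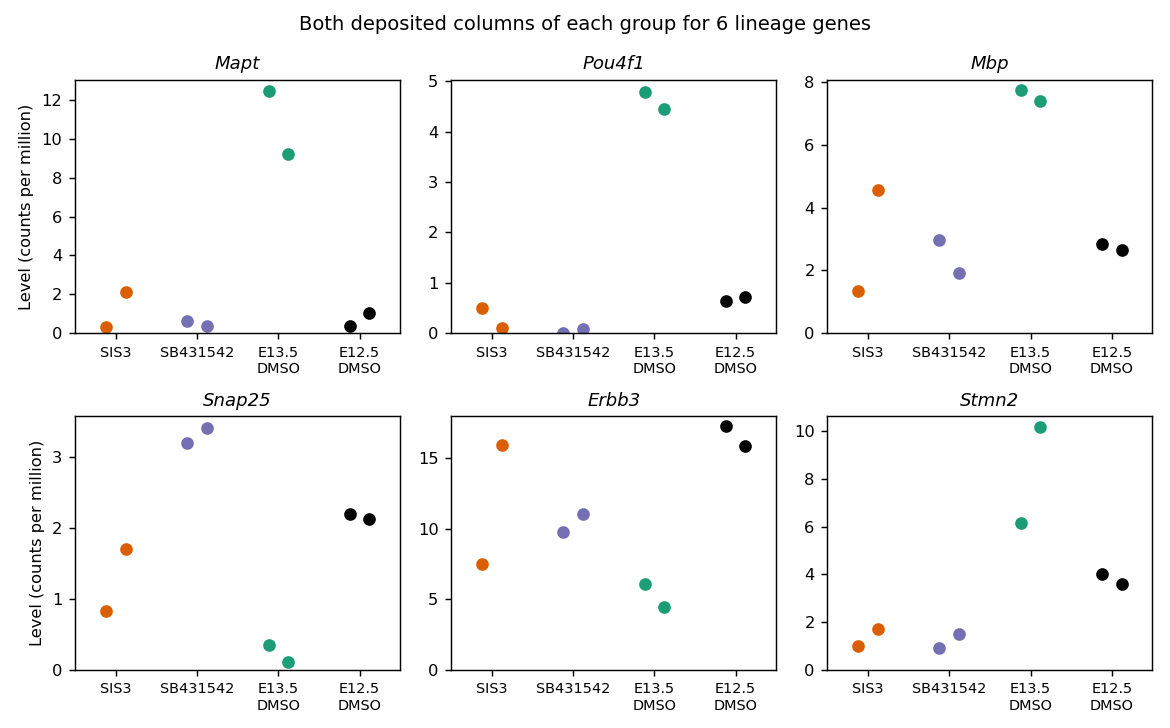
Level of 6 genes in both deposited columns of each group, in CPM. The columns of the SB431542, E13.5 DMSO and E12.5 DMSO groups were counted as 1 library each and lie close to each other for most of these genes, less so for Mapt and Stmn2 at E13.5, whereas the SIS3 columns are separate libraries. Mapt and Pou4f1 are high in both E13.5 columns, and Snap25 and Erbb3 are low in both.

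Of the other nerve lists at E13.5, 1 gene was called: Cntf, a neurotrophic cytokine gene, had 0 counts in the E13.5 DMSO library, against 60 counts (1.94 CPM) in the E12.5 DMSO library, at least 11.3-fold lower against the floor of 3 counts (adjusted p = 0.0394). This is 1 library against 1, and DESeq2 called 0 of the neurotrophic ligand genes. Cntf was 1 of 12 tested neurotrophic ligand genes, whose median was -0.27. None was called among 15 other Schwann lineage genes (median 0.19), 32 other pan-neuronal genes (median -0.15), 15 sensory ganglion genes (median 0.43) and 5 autonomic ganglion genes (median 1.03). Of 9 melanocyte markers 3 were tested, with a median of 1.34, 2 above 0 and 1 below, and none was called. At 0 were 5 of the 9 in the E13.5 DMSO library and 2 in the E12.5 DMSO library. Melanoblasts share their origin with Schwann cell precursors. Dct, a pigment enzyme of melanoblasts, stood at 22.1 CPM in the E13.5 DMSO library, against 5.29 CPM in the E12.5 DMSO library. Mitf went the other way, at 10.3 CPM in the E13.5 DMSO library, against 13.8 CPM in the E12.5 DMSO library.

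All 3 comparisons use the same E12.5 DMSO library, so they are not independent of each other. For Ngfr the log2 fold changes were -1.46 with SIS3, -0.12 with SB431542 and 0.23 at E13.5. For Sox10 they were -3.24 with SIS3, -0.36 with SB431542 and 1.03 at E13.5. For Dcx they were -1.42 with SIS3, -0.29 with SB431542 and 0.29 at E13.5. The differences between the comparisons were not tested.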

How the data were processed

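RNA-seq of 8 samples in 4 groups was used as 1 table of estimated counts per gene, deposited by the authors as whole numbers without scaling, so rounding changed nothing. All columns were matched to samples by name. Per the submitters' processing notes, the build was mm10 and the tools included Salmon, HISAT2 and DESeq2, with no version or role stated. The annotation, the counting options and any use of strand are unstated in the sources. Estimated counts share ambiguous reads among transcripts, so near-identical genes can trade counts. Exon lengths and coordinates were taken from GENCODE M21, promoters from RefSeq.

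The paired columns of 3 groups had differences of 1.19 to 1.25 times binomial noise for genes with 1 transcript (median based), against 11.0 for SIS3. The ratios were 1.55 to 1.90, against 11.5, for genes with 2 to 6 transcripts and 2.44 to 3.19, against 17.6, for genes with 7 or more. Based on means they were 1.56 to 3.15, against 30.7, for genes with 1 transcript, so the pairs are not free of excess differences. Each of these 3 pairs was summed. The 5 libraries were fitted in edgeR 4.0.16 (R 4.3.3) with TMM scaling, filterByExpr and a robust quasi-likelihood F test with group as the only factor. The fit had 1 residual degree of freedom, from the SIS3 pair, plus 12.5 borrowed across genes, and a biological coefficient of variation of 29.3%. Lone libraries are assumed to vary as that pair does, and whether the pair came from separate cultures is not given, so p-values measure a spread that may be technical. Counting intervals (95%, exact conditional binomial) and the floor of 3 counts (0.0969 to 0.5 CPM) cover counting error only. The scripts were tested on simulated data.

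All 28 genes are named. Of the other lists, genes past the threshold (at most 5 per list and comparison, in order of p) and some defining markers are named; other defining markers are not reported here. The genes and lists were chosen with earlier results of these data known. Alternatives were DESeq2 1.42.0, other scaling and filters, columns as replicates with and without a block, libraries left out, and GC and length trends.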

Additional observations from a re-analysis of the deposited data

How the results depend on the processing

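Calls depended on what counts as a replicate. With all 8 columns as replicates, 17748 genes were tested, among them 22 of the 28. Called were 259 genes for SB431542, 6764 for SIS3 and 9742 for E13.5. Of the 22 these were 0 for SB431542, 8 for SIS3 (all lower: Cdh19, Dcx, Gap43, Ngfr, Prph, S100b, Sox10 and Stmn2) and 8 for E13.5 (Mapt, Pou4f1, Mbp, Stmn2 and Map2 higher, Erbb3, Gap43 and Snap25 lower). The 8 of 22 stood beside 6764 of 17748 genes for SIS3 and 9742 of 17748 for E13.5, and are not read as a result about the lineages. With the replicate number as a block on those columns the counts were 83, 6194 and 9260 of 17748 genes, and 0, 7 and 8 of the 22 (Cdh19 was no longer called). Columns with the same number did not deviate together (correlations -0.076 to 0.041). Since the columns of 3 groups were each counted as 1 library, these correlations cannot decide whether the numbers pair the samples. The main fit did not use the numbers. Without a low-count filter 27, 1414 and 2062 of 27543 genes were called, and of the 28 genes 0, 1 (Ngfr) and 1 (Mapt). DESeq2 called 4 genes for SB431542, 675 for SIS3 and 574 for E13.5. Over genes that averaged at least 1 CPM, 379 genes were called for SIS3 and 452 for E13.5, and the glial minus neuronal median was -0.63 for SIS3 and 0.38 for E13.5. Without predicted, pseudo- and receptor genes 335 and 56 genes were called. For SIS3, the libraries of the 2 groups alone gave 232 calls, removal of GC and length trends 261, and leaving out the E13.5 DMSO library, an alternative chosen after seeing the data, 461. Leaving out 1 replicate at a time gave 0 to 1 calls for SB431542, 488 to 708 for SIS3 and 399 to 903 for E13.5, and 0 of the 28 genes in each fit with a test. The glial minus neuronal median then ran from -0.46 to -0.10 for SB431542, from -2.15 to -0.71 for SIS3 and from -0.70 to -0.18 for E13.5. A fit without 1 SIS3 library has no residual degrees of freedom and gave values without a test. For the SB431542, E13.5 DMSO and E12.5 DMSO groups, a replicate left out here is 1 of the columns summed to 1 library. Leaving it out only lowers the depth of that library, so these fits cannot show the variation between samples. The cause of these changes was not tested, except that fewer genes or libraries enter some fits by construction. Uncalled fold changes near 0 changed sign in some of these fits. With 1 column left out at a time they ran, for SB431542, from -0.20 to 0.28 for Tubb3 (below 0 without E12.5 DMSO column 1, and -0.06 without SB431542 column 1), from -1.18 to 0.65 for Elavl3 and -1.09 to 0.31 for Mapt (above 0 without E12.5 DMSO column 2), from -1.004 to 0.12 for S100b and -0.48 to 0.029 for Gap43 (above 0 without SB431542 column 1), and from -0.57 to 0.066 for Mbp, -0.025 to 0.18 for Nefm and -0.69 to 1.25 for Isl1 (turned without SB431542 column 2). For SIS3, Uchl1 ran from -0.44 to 0.13 (0.0055 without E12.5 DMSO column 1) and was 0.092 with GC and length trends removed. For E13.5, Cdh19 ran from -0.50 to 0.11, Nefm from -0.0698 to 0.021 and Syt1 from -0.68 to 0.0052, and Nefm was 0.0165 with DESeq2 size factors or DESeq2, 0.033 over genes of at least 1 CPM and 0.037 without predicted genes. Depth also limits the SIS3 values: 4 of the 8 glial genes in each SIS3 library, and 7 and 4 of the 20 neuronal genes, had 3 counts or fewer.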
